A study of Mus musculus with 7 samples.

Results

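The kinesin superfamily was followed in regulatory T cells (Tregs), which hold other immune cells in check. Its members were taken as every protein-coding gene whose symbol is Kif followed by a digit, which gave 39 of the 51138 genes counted. They comprised 11 mitotic kinesins, 13 transport kinesins, 14 other kinesins and Kif1bp, which encodes a protein that binds kinesin motor domains and is itself no motor. A low-count filter left 27 members for the test, of which 26 were motors, and 5 members were listed at 0 in every library.

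Tregs were sorted from the spleens of mice of the C57/BL6 strain that carry a red fluorescent reporter of Foxp3 (RFP-FoxP3+), 72 h after an injection. The 4 FP libraries came from mice given 20 ug of FP (IL-2/CD25), a fusion protein that joins interleukin-2 to a chain of its own receptor. The 3 PBS libraries came from mice given 100 uL of PBS. Both groups share the strain, the reporter and the sort, and the labels give no age. Nor do they say that replicates came from separate mice, so p-values cover only the variation among these samples, which may be technical.

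Kinesins are motors that use ATP to walk along microtubules or to shorten their ends. The mitotic kinesins build the spindle, move and align chromosomes and complete cytokinesis, and many of their genes are transcribed mainly in dividing cells. The transport kinesins carry vesicles, mitochondria, lysosomes and other cargo in dividing and resting cells alike, and in T cells microtubule motors also position organelles towards the contact with another cell.

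Total counts ran from 9956509 to 13429878 per library, and the limit set by a count of 0 (3 counts) is 0.214 to 0.322 CPM, the counts scaled to the library size by the trimmed mean of M values (TMM), for counting error only. Foxp3, the factor that defines Tregs and drives the reporter, averaged 540 ± 52.9 CPM in FP Tregs and 491 ± 7.24 CPM in PBS Tregs (SD, n = 4 and 3). Its log2 fold change of 0.14 did not pass edgeR's quasi-likelihood test (adjusted p = 0.292). Of the markers of other spleen cells, 10 of 10 for macrophages and monocytes were called lower after FP, where 18.5% of all genes tested were. Their summed level was 19.2 to 101 CPM in FP libraries and 496 to 1240 CPM in PBS libraries. B cell markers summed to 17.9 to 28.7 CPM in FP libraries and 17.1 to 32.2 CPM in PBS libraries. Dendritic cell markers summed to 11.7 to 15.5 CPM in FP libraries and 22.8 to 31.3 CPM in PBS libraries. Of these 5, 2 were called lower and 3 were not tested. The part of RNA from these other cells in the kinesin results was not tested. Among 15954 genes tested, 53.2% of those called were higher after FP with TMM scaling, against 33.2% when upper-quartile factors were used and 28.6% when libraries were scaled by size alone. The median over all genes of the log2 fold change was -0.05 with TMM and moved to -0.25 and -0.31 under those scalings.

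The mitotic kinesins rose together after FP. All 10 that could be tested were called higher (edgeR, adjusted p under 0.05), where 21.0% of all genes tested were called higher. The FP libraries lay above the PBS libraries for each of the 10, which held for 23.2% of all genes tested. Their log2 fold changes ran from 1.98 to 5.62 with a median of 3.81, which is 3.95-fold for Kif20b and 49.3-fold for Kif2c. Kif20b ranked 431 and Kif2c ranked 35 among all genes tested, counted from the largest rise. In bulk RNA, more cells that express a gene and more RNA per cell cannot be told apart.

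The kinesins that act on chromosomes and on microtubule ends included the steepest rises. Kif2c, which shortens microtubules to release faulty kinetochore attachments (GRCm38 chr4:117159639-117182639, minus strand), had 40.4, 42.1, 39.6 and 20.6 CPM in FP libraries, against 0.883, 0.953 and 0.263 CPM in PBS libraries. Its log2 fold change was 5.62 (adjusted p = 7.8e-06, SE 0.39). The lowest FP library was thus far above the highest PBS library, and the PBS values were near the counting floor. Kif18b, which limits the length of astral microtubules (chr11:102905529-102925124, minus strand), had 39.3, 49.3, 56.2 and 28.8 CPM in FP libraries, against 1.32, 0.88 and 1.05 CPM in PBS libraries, a log2 fold change of 5.32 (adjusted p = 2.27e-06, SE 0.30). Its relative Kif18a, which damps the swings of chromosomes at the spindle equator, had a smaller fold change, a difference that was not tested. It had 46.1, 39.4, 30.1 and 20.3 CPM in FP libraries, against 5.12, 6.16 and 4.73 CPM in PBS libraries, a log2 fold change of 2.66 (adjusted p = 9.2e-05, SE 0.28).

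Of the chromokinesins, motors that sit on chromosome arms, Kif4 (chrX:100625737-100727214, plus strand) had 70.4, 77.7, 70.1 and 45.0 CPM in FP libraries, against 2.47, 2.13 and 1.58 CPM in PBS libraries. Its log2 fold change was 4.99 (adjusted p = 1.39e-06, SE 0.25). Kif22, which pushes chromosome arms outward, had 62.4, 72.6, 82.0 and 53.3 CPM in FP libraries, against 10.6, 14.1 and 14.5 CPM in PBS libraries, a log2 fold change of 2.36 (adjusted p = 7.87e-06, SE 0.18). Per kb of exon, Kif22 and Kif4 had 13.8 ± 2.54 and 11.9 ± 2.59 CPM in FP Tregs, within their SD, and 2.67 ± 0.443 and 0.373 ± 0.082 CPM in PBS Tregs, where they were set apart (SD, n = 4 and 3). The spindle motor Kif15, which helps to hold the poles apart, had 137, 120, 127 and 86.7 CPM in FP libraries, against 9.63, 8.58 and 9.81 CPM in PBS libraries, a log2 fold change of 3.66 (adjusted p = 1.15e-06, SE 0.17). No FP library came near a PBS library for it.

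The kinesins of the midzone and of cytokinesis spread over the same range. Kif14, which recruits citron kinase to the midbody (chr1:136466343-136531511, plus strand), had 50, 56.6, 61.5 and 37.4 CPM in FP libraries, against 0.972, 1.61 and 1.23 CPM in PBS libraries, a log2 fold change of 5.31 (adjusted p = 1.15e-06, SE 0.25). Kif23, the motor of centralspindlin, had 74.2, 80.4, 85.7 and 55.6 CPM in FP libraries, against 4.95, 4.98 and 4.29 CPM in PBS libraries, a log2 fold change of 3.96 (adjusted p = 1.15e-06, SE 0.18). The coefficient of variation of Kif23 over the FP libraries, 17.8%, was the smallest of the 10. Kif20a, which brings the chromosomal passenger complex to the midzone, had 57.0, 67.8, 64.4 and 37.4 CPM in FP libraries, against 9.72, 12.1 and 11.5 CPM in PBS libraries, a log2 fold change of 2.35 (adjusted p = 2.66e-05, SE 0.21). Kif20b, which acts late in cytokinesis, had 101, 86.4, 70.7 and 52.0 CPM in FP libraries, against 21.3, 18.1 and 19.4 CPM in PBS libraries, a log2 fold change of 1.98 (adjusted p = 9.61e-05, SE 0.21). Kif20b thus had the smallest rise of the class, and its lowest FP library was still above its highest PBS library.

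FP replicate 4 had the lowest value of the FP libraries for 10 of the 10 mitotic kinesins. The proliferation marker Mki67 was lowest in the same library, with 1363, 1553, 1409 and 817 CPM in FP libraries, against 62.3, 54.5 and 41.1 CPM in PBS libraries. Without FP replicate 4 the 10 calls were still made, with a median log2 fold change of 3.92. The log2 fold change of Mki67 was 4.61, below those of Kif2c, Kif18b, Kif14 and Kif4 and above those of the other 6. Kif11, the motor that slides spindle microtubules apart, was listed at 0 in every library, as were its chromosome 19 neighbours Ide and Hhex, while Btaf1 and Exoc6 on either side of that stretch had 10053 and 4562 counts over the 7 libraries. No level is therefore given for Kif11.

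**Figure D1:**
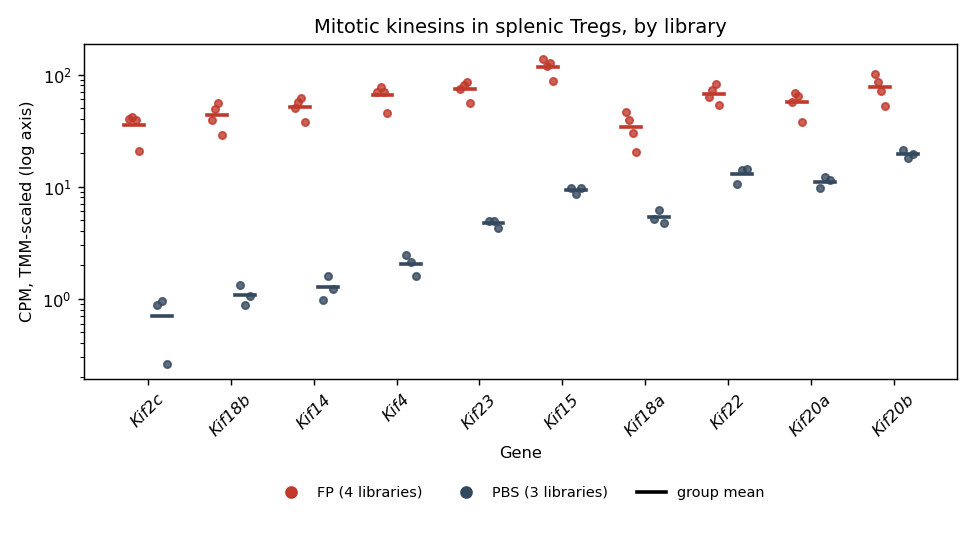
CPM of the 10 tested mitotic kinesins on a log axis, by gene along the horizontal axis. Each point is a library, FP libraries (4, red) left of PBS libraries (3, dark blue), and bars mark group means. For every gene all FP points lie above all PBS points, and the lowest FP point is FP replicate 4.

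The promoters of the kinesins were compared between the classes. RefSeq promoter windows (GRCm38, 250 bases before to 50 bases after the start) were found for 31 of the 39 members and for 27025 genes in all. They were searched on both strands for the cell cycle homology region (CHR; TTTGAA or TTCGAA), an element known from genes expressed in G2 and mitosis, for the CCAAT box (CCAAT) and for E2F sites (TTTGGCGC, TTTCCCGC, TTTCGCGC or TTTGCCGC). A CHR match was present in 9 of 10 mitotic windows (90.0%), 1 of 10 transport windows (10.0%) and 3 of 11 other kinesin windows (27.3%), against 21.7% of all genes. The 10 mitotic windows include that of Kif11, which has no level here, and not Kif20a. Of members that were tested, 8 of 9 mitotic (88.9%) and 0 of 8 transport windows held a CHR match. CCAAT matches were present in 6 mitotic windows (60.0%), 3 transport windows (30%) and 5 other windows (45.5%), against 41.1% of all genes. E2F matches were found in Kif15 and Kif18a and in 2.60% of all genes. Within 30 bases of the start, a distance chosen after the positions were seen, CHR matches remained in 7 mitotic members (70.0%; 6 of 9 tested, 66.7%), in none of the 10 transport members and in the other members Kif24 and Kif26b, against 3.95% of all genes. These are matches of letters and not shown to be bound sites.

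The CHR matches within 30 bases of the start are shown for the 6 tested mitotic members that have one (of 2 in Kif20b, the first), with 12 bases on either side, 5′ to 3′ on the gene's strand, with the match in capitals (TTCAAA is TTTGAA read on the other strand). Kif24 and Kif26b are added as the members outside the mitotic class with a match as close.
Kif4, chrX:100626072-100626101, plus strand: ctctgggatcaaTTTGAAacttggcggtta
Kif15, chr9:122951050-122951079, plus strand: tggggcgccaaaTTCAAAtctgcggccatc
Kif18b, chr11:102925104-102925133, minus strand: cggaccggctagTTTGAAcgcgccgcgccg
Kif20b, chr19:34922353-34922382, plus strand: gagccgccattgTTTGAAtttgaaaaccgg
Kif22, chr7:127042420-127042449, minus strand: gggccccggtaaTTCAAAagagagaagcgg
Kif23, chr9:61946780-61946809, minus strand: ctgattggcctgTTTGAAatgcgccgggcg
Kif24, chr4:41464857-41464886, minus strand: tcggcgcgcgcgTTCGAActggcgcttgtg
Kif26b, chr1:178529104-178529133, plus strand: tgggagaatttcTTTGAActcagttagcga
With the start counted as base 1, the match begins at base 20 in Kif4, -19 in Kif15, 4 in Kif18b, 8 in Kif20b, -17 in Kif22, 3 in Kif23, -26 in Kif24 and -9 in Kif26b. Kif20b holds a second match 6 bases on. The matches of Kif14 and Kif2c lie farther off, at bases -228 and -103. Kif4 starts in RefSeq 328 bases from its GENCODE gene start, and the RefSeq starts of Kif14 and Kif2c lie 1505 and 3867 bases away from theirs, so that those windows may not be the ones in use.

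To set a promoter of each class side by side, the 200 bases before the start are given for Kif18b, among the steepest rises, and Kif1b, a transport kinesin that fell, with CCAAT boxes in capitals (ATTGG on the other strand).
Kif18b, chr11:102925125-102925324, minus strand: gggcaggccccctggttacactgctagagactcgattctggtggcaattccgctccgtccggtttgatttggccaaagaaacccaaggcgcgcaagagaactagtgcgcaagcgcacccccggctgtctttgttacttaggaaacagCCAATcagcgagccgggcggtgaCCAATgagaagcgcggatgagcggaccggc
Kif1b, chr4:149307699-149307898, minus strand: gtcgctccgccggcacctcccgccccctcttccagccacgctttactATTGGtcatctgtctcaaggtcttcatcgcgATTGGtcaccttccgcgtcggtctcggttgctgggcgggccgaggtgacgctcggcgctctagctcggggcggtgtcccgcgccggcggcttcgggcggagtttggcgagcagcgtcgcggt
Both promoters hold 2 CCAAT boxes. They begin at bases -53 and -30 in Kif18b and at bases -153 and -122 in Kif1b, and the window of Kif1b holds no CHR match. From a second RefSeq start of Kif1b the same boxes begin at bases -118 and -87. Kif1b is not typical of its class. Windows with 2 or more CCAAT boxes were 1 of 10 among transport and 3 of 10 among mitotic kinesins, against 13.3% of all genes.

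The rise changed which kinesins made up the motor transcripts. Levels of different genes were set side by side as CPM per kb of exon. Summed over the class, the mitotic kinesins had 105, 111, 111 and 68.5 CPM per kb in FP libraries, against 10.6, 11.3 and 11.1 CPM per kb in PBS libraries, a ratio of means of 8.99. They made up 39.3 ± 5.86% of the summed level of all 38 motors in FP Tregs and 6.36 ± 0.181% in PBS Tregs (SD, n = 4 and 3). Kif11, for which no level is given, entered these sums and shares, and the order of levels below, at 0. Of the 10 motors with the highest mean level, 6 were mitotic in FP Tregs and 1 was mitotic in PBS Tregs. In FP Tregs the highest mitotic levels were those of Kif22 at 13.8 ± 2.54, Kif20a at 13.1 ± 3.13, Kif18b at 12.2 ± 3.34 and Kif4 at 11.9 ± 2.59 CPM per kb, neighbours whose differences are within their SD (n = 4).

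**Figure D2:**
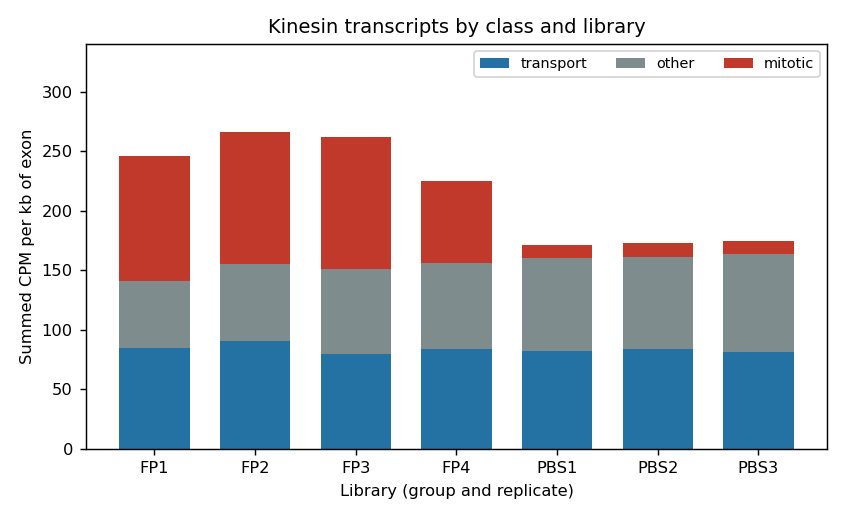
Summed CPM per kb of exon (vertical axis) of the transport (blue), other (grey) and mitotic (red) kinesins in each library, FP libraries left of PBS libraries. The mitotic part measures 68.5 to 111 in FP libraries and 10.6 to 11.3 in PBS libraries, while the transport part measures 79.3 to 90.2 in FP libraries and 81.3 to 83.8 in PBS libraries. Kif11 counts as 0 in the mitotic part, and Kif5b, which rose, is the largest member of the transport part.

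The transport kinesins changed little as a sum. Their summed level was 84.6, 90.2, 79.3 and 83.8 CPM per kb in FP libraries, against 82.2, 83.8 and 81.3 CPM per kb in PBS libraries, and these ranges overlapped. Kif5b, which rose, was the largest member of the sum. It had 33 ± 3.98 CPM per kb in FP Tregs and 24.4 ± 1.67 CPM per kb in PBS Tregs (SD, n = 4 and 3). Within the sum its rise offset falls of other members, so the sum does not show how single members moved. Of the 10 tested, 1 was called higher and 3 were called lower, where 21.0% of all genes tested were called higher and 18.5% lower. Under upper-quartile and library size scaling alike, 0 were called higher and 5 lower. Of all 15954 genes tested, 4823 and 5046 were then called lower, and 2399 and 2023 higher. The FP libraries lay below the PBS libraries for 4 of the 10, which held for 23.5% of all genes tested, and above them for 2, which held for 23.2%. The median log2 fold change was -0.10 (-0.30 under upper-quartile scaling and -0.36 under library size scaling, beside -0.25 and -0.31 for all genes). With TMM none of the 10 exceeded 0.67 in size. Under the other 2 scalings Kif13b was at -0.87 and -0.92, and Kif1b at -0.71 and -0.77.

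Kinesin-1, the main motor for long-range transport, is built on the heavy chains Kif5a, Kif5b and Kif5c. Kif5b, the heavy chain found in most tissues, had 293, 289, 236 and 237 CPM in FP libraries, against 210, 191 and 184 CPM in PBS libraries. It was the one transport kinesin called higher, with a log2 fold change of 0.44 (adjusted p = 0.00995, SE 0.11), and the groups did not overlap. The call was lost under upper-quartile scaling (0.23, adjusted p = 0.0587), under scaling by library size (0.16, adjusted p = 0.188) and when PBS replicate 3 was left out (adjusted p = 0.0574). Kif5c, best known from neurons, had 17.3, 20.6, 16.8 and 27.7 CPM in FP libraries, against 16, 13.4 and 14.7 CPM in PBS libraries. Its log2 fold change of 0.49 (SE 0.19) did not pass (adjusted p = 0.0575), although every FP library lay above every PBS library, the lowest by a small margin. It passed with DESeq2 (adjusted p = 0.0403), with no filter (0.0269) and without FP replicate 1 or 3 (0.0484 and 0.041). It was smaller without FP replicate 4 (0.31, adjusted p = 0.101) and under upper-quartile and library size scaling (0.30 and 0.24). The neuronal Kif5a had 33 counts over the FP libraries and 17 over the PBS libraries and was not tested.

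Among the transport kinesins, the falls with the smallest p were those of 2 kinesin-3 motors. Kif13b, which carries vesicles and binds the scaffold Dlg1 (chr14:64647265-64809617, plus strand), had 49.3, 54.9, 58.5 and 71.3 CPM in FP libraries, against 85.8, 96.0 and 98.1 CPM in PBS libraries. It fell by 0.67 on the log2 scale (adjusted p = 0.00197, SE 0.12). Kif1b, which carries mitochondria and lysosomes (chr4:149176319-149307693, minus strand), had 114, 124, 120 and 140 CPM in FP libraries, against 173, 179 and 182 CPM in PBS libraries. It fell by 0.51 on the log2 scale (adjusted p = 0.00148, SE 0.09). For both genes the highest FP library was FP replicate 4, which still lay below all PBS libraries. The endosomal motor Kif16b had 55.4, 47.2, 47.8 and 48.1 CPM in FP libraries, against 57.9, 58.1 and 60.5 CPM in PBS libraries. The groups did not overlap, but its log2 fold change of -0.25 did not pass (adjusted p = 0.056), though it did without FP replicate 1 (adjusted p = 0.0265) and under upper-quartile and library size scaling (0.00371 and 0.00316). Kif13a, a motor of recycling endosomes, had a log2 fold change of -0.17 (adjusted p = 0.225), and its groups overlapped. It was called lower under upper-quartile scaling (-0.37, adjusted p = 0.032) and library size scaling (-0.43, adjusted p = 0.037). Kif1c, a vesicle motor, had 0.16 (adjusted p = 0.194) and was -0.05 under upper-quartile scaling, and its groups overlapped. Kif1a, the motor of synaptic vesicle precursors, was sparse, with 2, 0, 1 and 0 counts in FP libraries and 6, 9 and 23 counts in PBS libraries, and was not tested.

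Of the kinesin-2 motors, which move cargo in cilia and in the cytoplasm, Kif3b had 70.1, 92.8, 78.4 and 77.9 CPM in FP libraries, against 82.0, 84.3 and 77.4 CPM in PBS libraries. The groups overlapped, and its log2 fold change was -0.03 (adjusted p = 0.863, SE 0.10). Kif3a, its usual partner, was low, at 4.3 to 6.22 CPM in FP libraries and 4.2 to 5.64 CPM in PBS libraries. Kif3c, an alternative partner of Kif3a, had 14.3, 14.8, 14.5 and 15.2 CPM in FP libraries, against 17.1, 22.4 and 18.6 CPM in PBS libraries. It fell by 0.40 on the log2 scale (adjusted p = 0.0367, SE 0.13), with no overlap of the groups. The call was lost with DESeq2 (adjusted p = 0.0724), with no filter (0.0914) and without FP replicate 1, 2 or 3 (0.073, 0.0611 and 0.0707) or PBS replicate 2 or 3 (0.195 and 0.084). Genes on the other strand, among them 1110002L01Rik, cover 43.3% of the exons of Kif3c. 1110002L01Rik was itself called lower, by a log2 fold change of -0.72, and without a strand setting in the sources used here reads of both genes cannot be told apart. Kif17, a kinesin-2 known from dendrites and cilia, had 0 counts in all FP libraries and 3, 7 and 1 counts in PBS libraries. These were too few to pass the low-count filter.

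**Figure D3:**
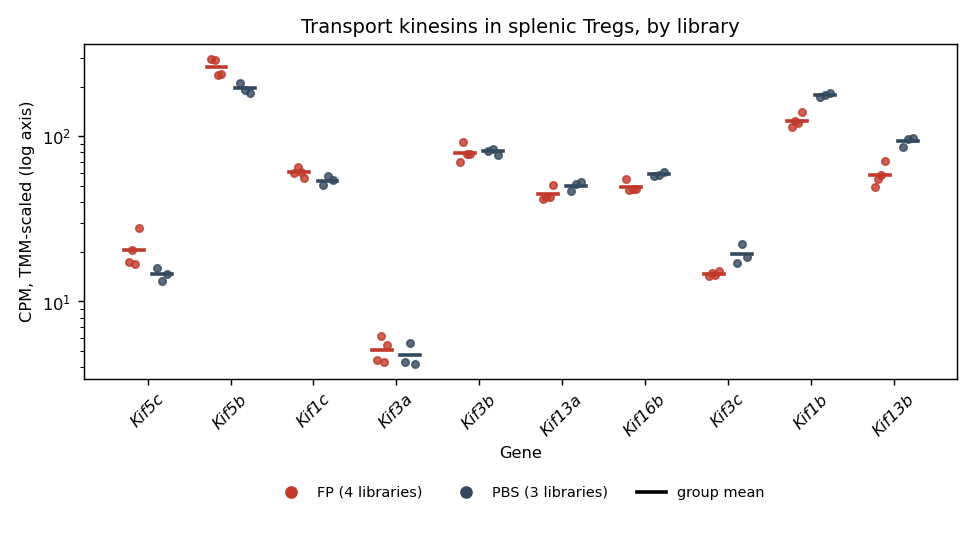
CPM of the 10 tested transport kinesins on a log axis, by gene along the horizontal axis, with FP libraries (4, red) left of PBS libraries (3, dark blue) and bars at group means. Kif5b lies higher in FP libraries, Kif1b and Kif13b lie lower, and Kif3a and Kif3b overlap.

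The other kinesins were led by Kif21b, which restrains microtubule growth in T cells and neurons (chr1:136131389-136177998, plus strand). Kif11 aside, it had the highest level of any kinesin in both groups, 46.9 ± 7.24 CPM per kb in FP Tregs and 63.5 ± 2.74 CPM per kb in PBS Tregs (SD, n = 4 and 3). It had 445, 580, 619 and 642 CPM in FP libraries, against 753, 757 and 812 CPM in PBS libraries, and fell by 0.44 on the log2 scale (adjusted p = 0.0191, SE 0.13). The groups did not overlap, with FP replicate 1 the lowest. The call was lost without PBS replicate 1, 2 or 3 (adjusted p = 0.0501, 0.0599 and 0.086). As a share of all motors, with Kif11 at 0, Kif21b made up 18.9 ± 3.54% in FP Tregs and 36.8 ± 1.24% in PBS Tregs.

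Kif24, a centriolar kinesin that shortens microtubules, had 30.3, 22.6, 33.9 and 23.2 CPM in FP libraries, against 10.1, 12.6 and 13.3 CPM in PBS libraries. It rose by 1.19 on the log2 scale (adjusted p = 0.000686, SE 0.18), with no overlap of the groups. Among the members chosen by symbol, it was the one outside the mitotic and transport classes called higher. It was also 1 of the 2 other kinesins with a CHR match near the start. The second of these, Kif26b, had 7 counts over the FP libraries and 21 over the PBS libraries and was not tested. Kif19a, a ciliary kinesin, had 0.645, 0.355, 0.366 and 0.499 CPM in FP libraries, against 1.32, 1.47 and 0.788 CPM in PBS libraries. It fell by 1.36 on the log2 scale (adjusted p = 0.0183, SE 0.39) at levels near the counting floor, with 21 counts over the FP libraries and 44 over the PBS libraries. That call was lost with DESeq2 (adjusted p = 0.0708) and without PBS replicate 1 or 2 (adjusted p = 0.0621 and 0.0976). Under a stricter low-count filter, which kept 15528 genes, Kif19a was left out and not tested.

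Kif2a, a relative of Kif2c that shortens microtubules in many cells, dividing or not, had 93.5, 86.6, 97.0 and 99.5 CPM in FP libraries, against 89.4, 77.7 and 77.2 CPM in PBS libraries. The groups overlapped and the log2 fold change of 0.21 (SE 0.09) did not pass (adjusted p = 0.0941), where Kif2c, of the same family, changed by 5.62. Kif7, a regulator of Hedgehog signalling in cilia, and Kif9, a ciliary kinesin, did not pass either, with log2 fold changes of -0.04 and -0.46. Kif1bp had a log2 fold change of 0.27 (adjusted p = 0.148), and passed without FP replicate 4 (0.36, adjusted p = 0.0361). Kif12, Kif21a, Kif2b and Kif6 were listed at 0 in every library, and Kif26a, Kif27 and Kif28 had at most 9 counts over a group.

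**Figure D4:**
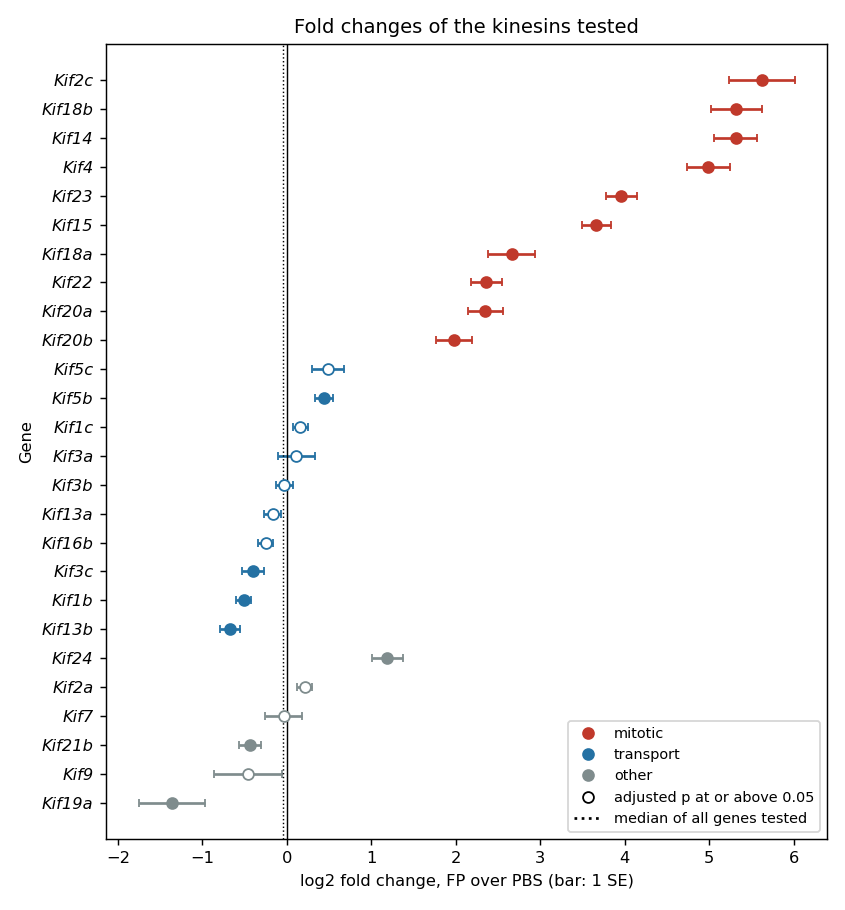
Log2 fold changes of FP over PBS (horizontal axis, bars of 1 SE) of the tested motors (vertical axis) by class, with filled points for an adjusted p under 0.05 and a dotted line at the median of all genes, -0.05. The mitotic kinesins lie between 1.98 and 5.62, and the transport kinesins between -0.67 and 0.49.

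Other kinesins lie outside the symbol rule. Cenpe, the kinetochore kinesin that brings chromosomes to the spindle equator, was called higher with a log2 fold change of 4.60 (edgeR adjusted p = 2.27e-06), within the range of the mitotic members. The minus-end-directed spindle motors Kifc1 and Kifc5b were called higher by 1.71 and 1.40, and as near-identical copies may share reads. Kifc2 was called lower with -0.96 (adjusted p = 0.0106), and Kifc3 had -0.31 (adjusted p = 0.454).

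Partners of the motors were followed on lists by role. Of the spindle and midzone partners, 17 of 17 were called higher, where 21.0% of all genes tested were, with a median log2 fold change of 4.46, beside -0.05 for all genes. Spag5, a spindle and kinetochore protein, had 5.39, Birc5, a subunit of the chromosomal passenger complex, had 5.30, and Ect2, which binds centralspindlin, had 3.54. The cargo adaptors of the transport kinesins had a median of -0.12, with 1 of 15 called higher and 5 called lower, where 21.0% of all genes tested were called higher and 18.5% lower. The kinesin light chains Klc3 and Klc2 went opposite ways, with log2 fold changes of 1.41 (adjusted p = 0.00149) and -0.67 (adjusted p = 0.00494), and Plekhm2, which couples lysosomes to kinesin-1, had -0.71 (adjusted p = 0.00202). Of dynein and dynactin genes, the machinery of transport towards microtubule minus ends, 11 of 26 were called higher and 3 lower, beside the same 21.0% and 18.5% of all genes, with a median of 0.23. The 3 with the smallest p were Spdl1, the adaptor of dynein at kinetochores, at 2.74, Nde1, a dynein regulator, at 0.66, and the dynactin subunit Dctn3 at 0.89.

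Overlaps with other genes touch some members. Of the 27 tested, 10 share exon bases with another gene and 6 of them more than 10% of their exon length. Kif20a shares 29.3% with Cdc23 on the other strand, which had a log2 fold change of -0.11, and Kif4 shares 15.1% with Pdzd11, at 0.88. Kif7 shares 20.3% with Ticrr, at 3.72, and a second gene, and Kif2a shares 19.2% with Dimt1, at -0.14. The pseudogenes Kif4-ps and Kif22-ps had 0 counts.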

How the data were processed

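Per the labels, RNA of sorted splenic Tregs was made into libraries with a kit that removes ribosomal RNA. The authors mapped reads to GRCm38 with STAR 2.5.0b and counted them with featureCounts 1.5.0, per the submitters' processing notes, and per the series' design text on GENCODE M13 genes. The deposited table holds unnormalized counts, and whether strand was used and how reads with several matches were treated is not given in the sources used here. Symbols were found for 50462 of 51138 identifiers, and exon lengths and overlaps came from a newer GENCODE annotation of the same build.

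The members and gene lists were chosen with earlier results of these data known. The fit was run on the whole table with edgeR 4.0.16 in R 4.3.3 (filterByExpr, TMM factors, robust quasi-likelihood test, Benjamini-Hochberg over 15954 genes, threshold 0.05), and the scripts were tested on simulated data. CPM use TMM-scaled library sizes. The named genes are every member, from each partner list the 3 genes of smallest p among those called, all kinesins outside the symbol rule that were tested, and Foxp3 and Mki67. Alternatives used DESeq2 1.42.0, limma 3.58.1, other scalings and filters, a replicate block, broader classes, and each library left out in turn.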

Additional observations from a re-analysis of the deposited data

Results flagged for a closer look

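In 27 kinesin genes, the 4 FP libraries were checked for a library far from the other 3, by the gap to the nearest library over the whole range and Dixon's critical value at the 95% level; chance flags about 1 in 20 such groups. Kif2c was at 20.6 CPM in FP replicate 4, the others at 39.6 to 42.1 CPM. Kif13a was at 50.7 CPM in the same library, the others at 41.7 to 43.1 CPM. Kif16b was at 55.4 CPM in FP replicate 1, the others at 47.2 to 48.1 CPM.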

How the results depend on the processing

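The 10 mitotic calls were made in every alternative tried, and their median log2 fold change ran from 3.53 (library size alone) upward to 3.92. Of 404 pairs of a tested member and an alternative, 362 kept call and sign, 16 lost a call and 11 gained one. Another 15 pairs changed sign without a call on either side, in Kif1bp, Kif1c, Kif2a, Kif3a, Kif3b and Kif7, and 19 of 27 members had the same call in all 15 alternatives. With upper-quartile factors 4823 genes were lower, and 0 transport kinesins were higher and 5 lower. With library size alone 2023 genes were higher and 5046 lower, and again 0 transport kinesins were higher and 5 lower. Kif13a and Kif16b joined the lower ones under both scalings, at -0.37 and -0.45 and at -0.43 and -0.52. With DESeq2 and with no filter all 13 transport kinesins entered the fit. In both, 2 were higher, Kif5c being the second, and 3 and 4 were lower. Kif3c was not among those lower, which include members that the low-count filter had left out. Leaving out 1 library gave 4088 to 7277 genes called and 1774 to 3389 lower, the lowest without PBS replicate 3 and 1869 lower without PBS replicate 2, and 0 to 2 transport kinesins higher. Broader classes gave 11 of 12 mitotic and, of 11 transport, 1 higher and 4 lower. A replicate block called 7870 genes, with 10 mitotic higher and 1 transport kinesin higher and 3 lower. Kif1bp passed under it (0.36, adjusted p = 0.0411). FP replicate 4 has no PBS library of its number, so under the block the fold changes rest on numbers 1 to 3. The mitotic median was 3.92, as without FP replicate 4. In deviations from the group means, same-numbered libraries correlated at 0.219, 0.0702 and 0.0966, and PBS replicate 3 at 0.394 with FP replicate 4. With so few libraries these values cannot show whether same-numbered samples were paired, and the labels do not say so. The causes were not tested. The low counts of Kif2c in PBS libraries and of Kif19a limit their precision.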
